A study of Sus scrofa with 3 samples.

Results

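Small RNA of the red peroneal longus (PL) was set against small RNA of the intermediate psoas major muscle (PMM) over all miRNAs of the deposited conserved-miRNA table, that is, sequences mapped to precursors of other mammals and then to the pig genome. The 152 entries of the table held 145 unique mature sequences, and the largest value per library was kept where entries were identical. Of these, 108 had at least 3 reads summed over the 3 libraries of the series and were tested, and the other 37 had fewer. Both muscles came from female Landrace pigs of 210 days, with 1 library per muscle. The PL library was made from small RNA pooled from 3 pigs, whereas for PMM the sources used here state only that the same pigs were used. PL was sequenced for the study and PMM earlier, so sequencing run and muscle cannot be told apart. The white longissimus dorsi muscle (LDM) is the remaining library. With no replicates, every test below compares 2 libraries, and the spread between animals was not measured.

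Skeletal muscle fibers differ in their myosin heavy chains and in their metabolism: red fibers are slow and oxidative, white fibers are fast and glycolytic, and intermediate fibers lie between them. A miRNA is cut from either arm of a hairpin precursor, named 5p or 3p, and pairs with messenger RNAs mainly through its seed, after which the target is less stable or less translated. Several miRNAs sit in introns of myosin genes in mammals, among them miR-208a, and a very large imprinted cluster of miRNAs, DLK1-DIO3, is known for its activity in growing and regenerating muscle.

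The sequences of the miRNAs that carry the comparison are shown here as listed in the deposited table, 5′ to 3′ with T for U, and capitals mark the seed (bases 2 to 8). The first group was called higher in PL on raw-read totals and lay outside a short stretch of chromosome 6 described further below.
miR-26b-5p: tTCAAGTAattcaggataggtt
miR-208a-3p: aTAAGACGagcaaaaagcttgt
miR-188-3p: cCTCCCACgtgcagggtttgca
miR-411c-5p: gGTTGATCagagaacatacatt
miR-411c-3p: tGTATGTCaactgatccacagt
miR-377-3p: aTCACACAaaggcaacttttgt
miR-431-5p: tGTCTTGCaggccgtcatgc

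The second group was called lower in PL.
miR-1-3p: tGGAATGTaaagaagtgtgtat
miR-34b-3p: aATCACTAactccactgccatc
miR-219-3p: aGAATTGTggctggacatctgt
miR-200c-3p: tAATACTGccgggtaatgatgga
miR-485-5p: aGAGGCTGgccgtgatgaattcg
miR-485-3p: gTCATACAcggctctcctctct
miR-33a-5p: gTGCATTGtagttgcattgca
miR-330-3p: cAAAGCACacggcctgcagaga
miR-590-5p: gAGCTTATtcataaaagtacag
miR-6529-5p: gAGAGATCagaggcgcagagt

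No seed was shared within either group. The listed miR-1-3p differed from its own precursor by the substitution A17G, counted from 1 at the 5′ end of the miRNA with the precursor base first, so its reads are those of a variant listed apart from the exact miR-1-3p. The listed miR-188-3p also differed from its precursor by 1 base, and the other sequences shown above matched theirs. Known porcine miRNAs, where the common forms of many muscle miRNAs would be counted, are not analysed here.

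Values are read counts, listed in the table as those of the most abundant sequence, and RPM, the same reads scaled to a library of 1 M raw reads. PL had 9.17 M raw reads and PMM had 18.46 M, a depth ratio of 2.01, so 1 read equals 0.109 RPM in PL and 0.0542 RPM in PMM. Conserved miRNAs took 23583 reads in PL and 16286 reads in PMM, which was 0.257% of raw reads in PL and 0.0882% in PMM. The higher total in PL was that of miR-26b-5p, since the other conserved miRNAs summed to 243.7 RPM in PL and 329.3 RPM in PMM, 1.35-fold lower in PL (95% interval 1.29 to 1.42). Intervals throughout cover counting error only.

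A miRNA was called when its Bonferroni-adjusted p was under 0.001 in each of 3 two-sided tests on the reads of the 2 libraries, those of Audic and Claverie, of Fisher, and chi-squared. Below, the adjusted p of Fisher's exact test is given as the adjusted exact p. Of the 108 tested miRNAs, 23 were called (21.3%): 12 were higher in PL (11.1%) and 11 were lower in PL (10.2%), and 85 were not called. Calls followed depth. With at least 100 reads over both libraries 15 of 20 miRNAs were called, with 20 to 99 reads 8 of 26, and with fewer than 20 reads 0 of 62, a range in which differences of moderate size were not detectable. The split between higher and lower calls depended on the library total. It was 18 higher and 8 lower in PL on summed conserved reads without miR-26b-5p, and 3 higher and 27 lower on all summed conserved reads.

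**Figure D1:**
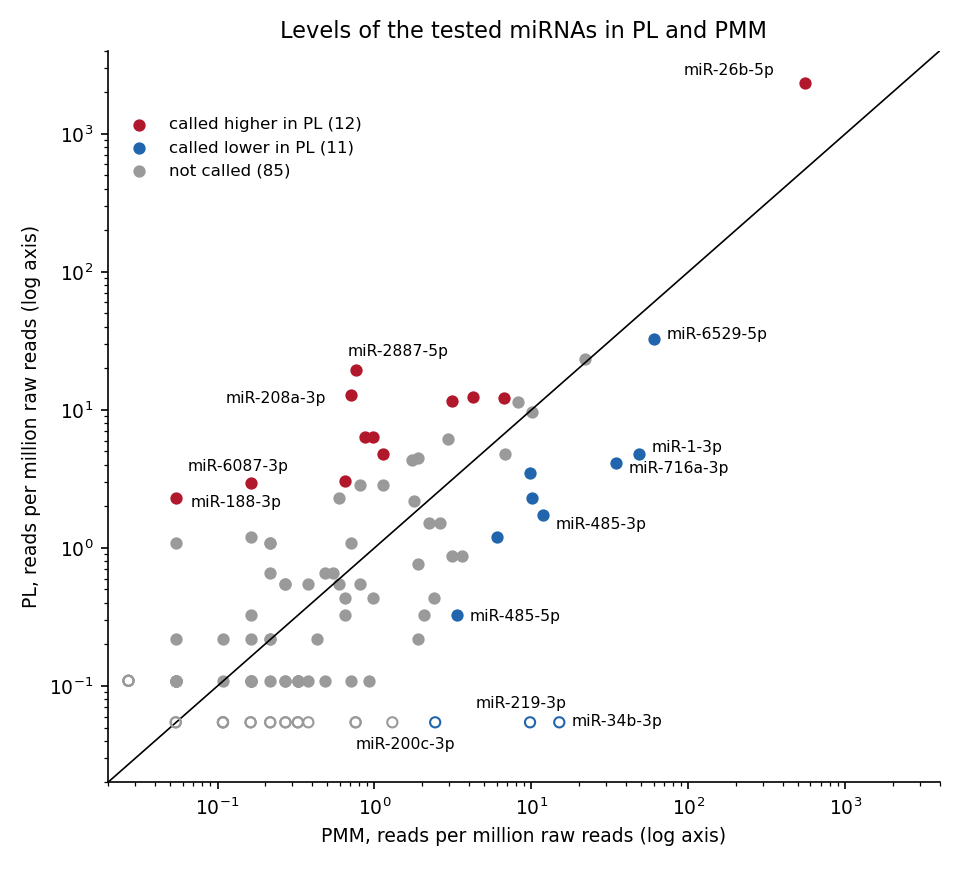
Level of each tested miRNA with a read in PL (vertical, log axis) against PMM (horizontal, log axis), in RPM. Red points were called higher in PL (12), blue points lower (11), grey points were not called (85, of which 2 had no read in either muscle and are not drawn), open circles had no read in 1 of the libraries and are drawn at 0.5 read, and the line marks equal levels. miR-26b-5p stands far above the rest, and miR-34b-3p and miR-219-3p lie at the lower edge with no read in PL.

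Across the 106 miRNAs with a read in either library, the log2 levels had a Pearson r of 0.64 and a Spearman rho of 0.55, as a description across miRNAs that share the libraries. The most abundant 10 of each library had 4 in common, miR-26b-5p, miR-6529-5p, miR-660-5p and miR-409-3p. Of the 108 tested, 83 had a read in both muscles, 3 in PL alone and 20 in PMM alone. The 3 with reads in PL alone (miR-1281-3p, miR-3976-3p and miR-682-5p) had 1 read each. Of the 20 in PMM alone, 6 had 10 or more reads, up to 278. Since PMM was sequenced deeper, PMM was also thinned to the depth of PL, after which 78 miRNAs had reads in both, 8 in PL alone and 16 in PMM alone.

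miR-26b-5p, which lies in an intron of a CTD phosphatase gene in mammals and is known to act in differentiation, dominated both libraries. It had 21348 reads in PL and 10208 reads in PMM, so it held 90.5% of what the table counted in PL (90.1 to 90.9, exact binomial) and 62.7% in PMM (61.9 to 63.4). Its level was 4.21-fold higher in PL (4.11 to 4.31). It was called higher under every library total tried, with a log2 difference of 2.07 on raw reads and 0.53 on summed conserved reads. The opposite arm, miR-26b-3p, had 41 reads in PL and 35 reads in PMM, 2.36-fold higher in PL (1.47 to 3.81) but with a log2 fold of −0.31 on summed conserved reads, and was not called (adjusted exact p = 0.0232). The entries listed as miR-26a-5p and miR-26a-3p were rare, at 1 and 0 reads in PL against 6 and 2 reads in PMM. The listed miR-26a-5p has CCTCG ahead of the TTCAAGTA that opens miR-26b-5p, so its seed is another one (CTCGTTC). The study reports miR-26a as highly expressed in PL, among known porcine miRNAs, which are not analysed here. The reads of these entries therefore do not give the level of miR-26a in either muscle.

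The muscle list held 8 names, of which only miR-1 and miR-208a were in the tested table, and they went opposite ways. miR-208a-3p (Sscrofa10.2 chr7:81043844-81043943, minus strand, as the table gives the precursor) comes from an intron of the cardiac myosin gene MYH6 in mammals and is known as a heart miRNA. It had 118 reads in PL and 13 reads in PMM, 12.9 RPM in PL and 0.704 RPM in PMM, 18.3-fold higher in PL (10.3 to 35.3, adjusted exact p = 5.25e-40). miR-1-3p (precursor chr6:99481915-99482025, plus strand) is known for promoting differentiation of myoblasts. In the variant listed it had 44 reads in PL and 892 reads in PMM, 4.80 RPM in PL and 48.3 RPM in PMM, 10.1-fold lower in PL (7.44 to 14.0, adjusted exact p = 6.09e-100). Both calls held under every library total tried. The ratio of miR-208a-3p to miR-1-3p reads, which needs no library total, was 2.68 in PL and 0.0146 in PMM. The opposite arm of miR-1 had 7 reads in PL and 35 reads in PMM, and that of miR-208a 3 reads in each, neither called. Reads of the tested entries of the list summed to 18.8 RPM in PL and 51.1 RPM in PMM, nearly all of it miR-1-3p in PMM. This sum does not give the level of muscle miRNAs as a group. Among known porcine miRNAs, not analysed here, the study reports miR-208b, miR-499 and miR-486 as enriched in PL and miR-1 in LDM. In whole muscle, fewer cells of a type and less of a miRNA per cell cannot be told apart.

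The DLK1-DIO3 list was the largest, with 19 tested miRNAs, and its members were called in both directions: 4 higher in PL, 2 lower and 13 not called, against 11.1% higher and 10.2% lower of all tested. miR-411c had both arms higher. miR-411c-5p had 58 reads in PL and 16 reads in PMM, 7.30-fold higher in PL (4.14 to 13.6, adjusted exact p = 2.18e-13). miR-411c-3p had 107 reads in PL and 58 reads in PMM, 3.71-fold higher in PL (2.67 to 5.20, adjusted exact p = 1.51e-14). Thus a single hairpin gave 2 of the 4 higher calls. On summed conserved reads none of the 4 was called.

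The other pair came from separate hairpins. miR-377-3p had 58 reads in PL and 18 reads in PMM, 6.49-fold higher in PL (3.77 to 11.7, adjusted exact p = 1.85e-12). miR-431-5p is known in mouse from muscle satellite cells, where it acts on Pax7. It had 28 reads in PL and 12 reads in PMM, 4.70-fold higher in PL (2.31 to 10.1, adjusted exact p = 2.42e-04), and was also not called with TMM. miR-544-5p had the highest ratio of the list, at 10 reads in PL and 1 read in PMM (20.1, 2.86 to 874), and was not called (adjusted exact p = 0.0135).

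Both arms of miR-485, a hairpin of the same cluster that is known from neurons, were lower in PL. miR-485-3p had 16 reads in PL and 220 reads in PMM, 6.83-fold lower in PL (4.11 to 12.2, adjusted exact p = 3.40e-20). miR-485-5p had 3 reads in PL and 62 reads in PMM, 10.3-fold lower in PL (3.35 to 51.1, adjusted exact p = 4.12e-06). The ratio of miR-411c-3p to miR-485-3p reads was 6.69 in PL and 0.264 in PMM, so the members did not share 1 shift between the libraries. Between these extremes, miR-409-3p had 88 reads in PL and 185 reads in PMM, a PL over PMM fold of 0.958 (0.734 to 1.24), and miR-655-3p had 44 reads in PL and 125 reads in PMM, a fold of 0.709 (0.491 to 1.01). The other uncalled members with at least 10 reads also pointed both ways. miR-376b-3p had 26 reads in PL and 21 reads in PMM, and miR-412-5p had 11 reads in PL and 3 reads in PMM. miR-539-5p had 3 reads in PL and 38 reads in PMM, and miR-496-3p had 0 reads in PL and 14 reads in PMM.

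Summed over the list, DLK1-DIO3 reads came to 470 in PL and 793 in PMM, 51.3 RPM in PL and 43.0 RPM in PMM, 1.19-fold higher in PL (1.06 to 1.34), but 2.44-fold lower in PL on summed conserved reads. The median log2 fold of the list was 0.52 on log2(reads + 0.5) scaled to raw reads, against −0.34 over all tested miRNAs with a read. The list left out miR-154b and miR-376d, which also belong to this cluster in mammals, and all 4 of their arms had lower levels in PL, with none called. With them, an alternative chosen after seeing the data, the median was −0.06 and the summed level was 1.07-fold higher in PL with an interval that includes 1 (0.954 to 1.19). On the log2(reads + 0.5) scale a miRNA with equal reads in both libraries lies at 1.01, so rare miRNAs are drawn toward that value. Among the 14 list members with at least 10 reads over both libraries, without miR-154b and miR-376d, the median was 1.60. Over the 65 tested miRNAs with as many reads it was −0.05. The 1.60 leaves out miR-154b-5p, miR-376d-5p and miR-376d-3p, which had as many reads and log2 folds of −1.98, −2.82 and −0.83. A median with them was not computed. The minimum was reached mainly through PL by miR-544-5p (10 reads in PL, 1 in PMM), and through PMM alone by miR-496-3p (0 in PL, 14 in PMM).

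**Figure D2:**
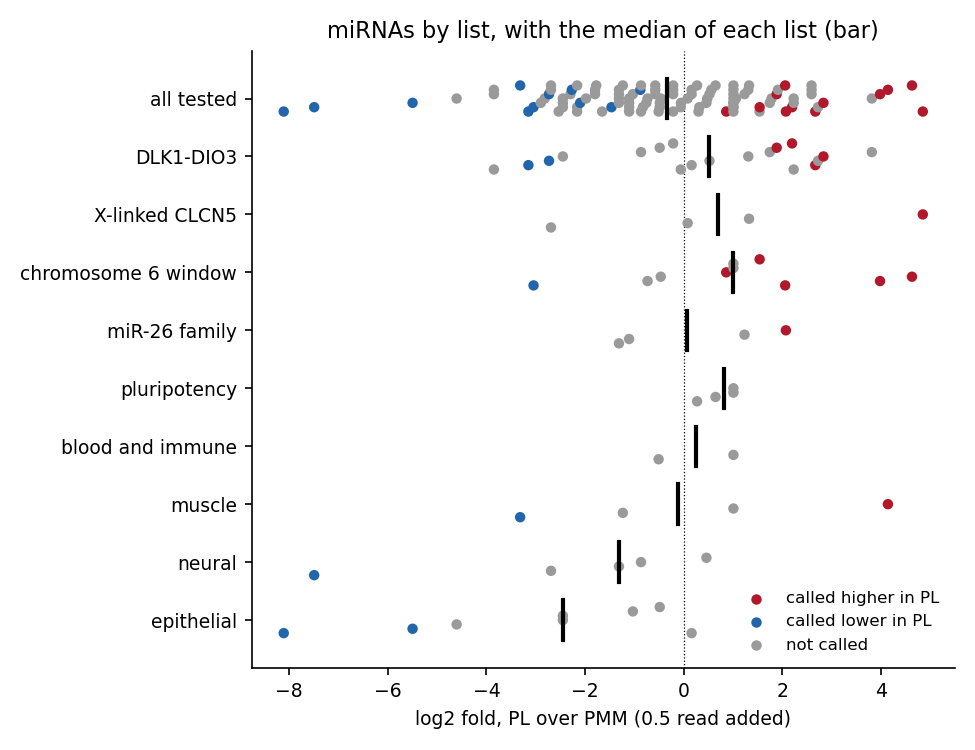
Log2 fold of PL over PMM (horizontal, 0.5 read added, raw-read totals) of each miRNA by list, 1 point per miRNA, with black bars at the medians. Red was called higher in PL, blue lower, grey not called. The DLK1-DIO3 points run from below −3 to above 3, while 7 of 8 epithelial points lie below 0.

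miR-188 and miR-660 belong to a cluster in an intron of the chloride channel gene CLCN5 on the X chromosome in mammals. miR-188-3p (precursor chrX:48632378-48632485, plus strand) had 21 reads in PL and 1 read in PMM, 2.29 RPM in PL and 0.0542 RPM in PMM, with a ratio of 42.3 that 1 read in PMM leaves poorly fixed (6.80 to 1748, adjusted exact p = 1.42e-07). It was not called on summed conserved reads. The other arm, miR-188-5p, had 40 reads in PL and 32 reads in PMM, 2.52-fold higher in PL (1.54 to 4.14) but with a log2 fold of −0.22 on summed conserved reads, and was not called (adjusted exact p = 0.0142). miR-660-5p, which ranked among the 10 most abundant in both muscles, had 213 reads in PL and 406 reads in PMM. At 23.2 RPM in PL and 22.0 RPM in PMM its fold was 1.06 (0.891 to 1.25). miR-660-3p had 0 reads in PL and 6 reads in PMM.

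Of the miRNAs called, 5 of the 12 higher in PL and 1 of the 11 lower in PL came from a short stretch of chromosome 6 (866649 to 870961) that holds miR-2887, miR-2904, miR-6087, miR-716a and miR-5105, on the minus strand. The longest run of bases shared by the 2 arms was 20 for miR-5105, 17 for miR-2887, 16 for miR-6087 and 8 for miR-2904. In these hairpins the run ends the 5p entry and opens the 3p entry, so reads of the 2 arms may not be separable. For miR-716a the longest run was 5 bases inside both entries, which is not an overlap of its arms. The overlap is plain in miR-5105, where the whole 3p entry stands at the end of the 5p entry (capitals again mark bases 2 to 8).
miR-5105-5p: gCCCAAGTccttctgatcgaggccc
miR-5105-3p: aGTCCTTCtgatcgaggccc

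miR-2887-5p had 178 reads in PL and 14 reads in PMM, 25.6-fold higher in PL (14.9 to 47.8, adjusted exact p = 1.41e-65). miR-716a-3p went the other way, with 38 reads in PL and 639 reads in PMM, 8.35-fold lower in PL (6.02 to 11.9, adjusted exact p = 3.48e-66). The ratio of miR-2887-5p to miR-716a-3p reads was 4.68 in PL and 0.0219 in PMM. miR-6087-3p had 27 reads in PL and 3 reads in PMM, and miR-2904-3p had 44 reads in PL and 21 reads in PMM. The first was 18.1-fold higher in PL (5.58 to 93.3) and the second 4.22-fold (2.45 to 7.47).

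miR-5105-3p had 113 reads in PL and 78 reads in PMM, 2.92-fold higher in PL (2.17 to 3.94). miR-5105-5p, with 112 reads in PL and 124 reads in PMM, was the call closest to the threshold (1.82-fold higher in PL, 1.40 to 2.37, adjusted exact p = 6.57e-04). On summed conserved reads miR-5105-3p had a log2 fold of −0.0022 and miR-5105-5p one of −0.68, and neither was called. The other arms of miR-2887, miR-2904, miR-6087 and miR-716a were not called, and the deepest of them, miR-2904-5p, had 14 reads in PL and 48 reads in PMM. Without the 10 entries of this stretch, 7 miRNAs were called higher and 10 lower in PL, among 98 tested.

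**Figure D3:**
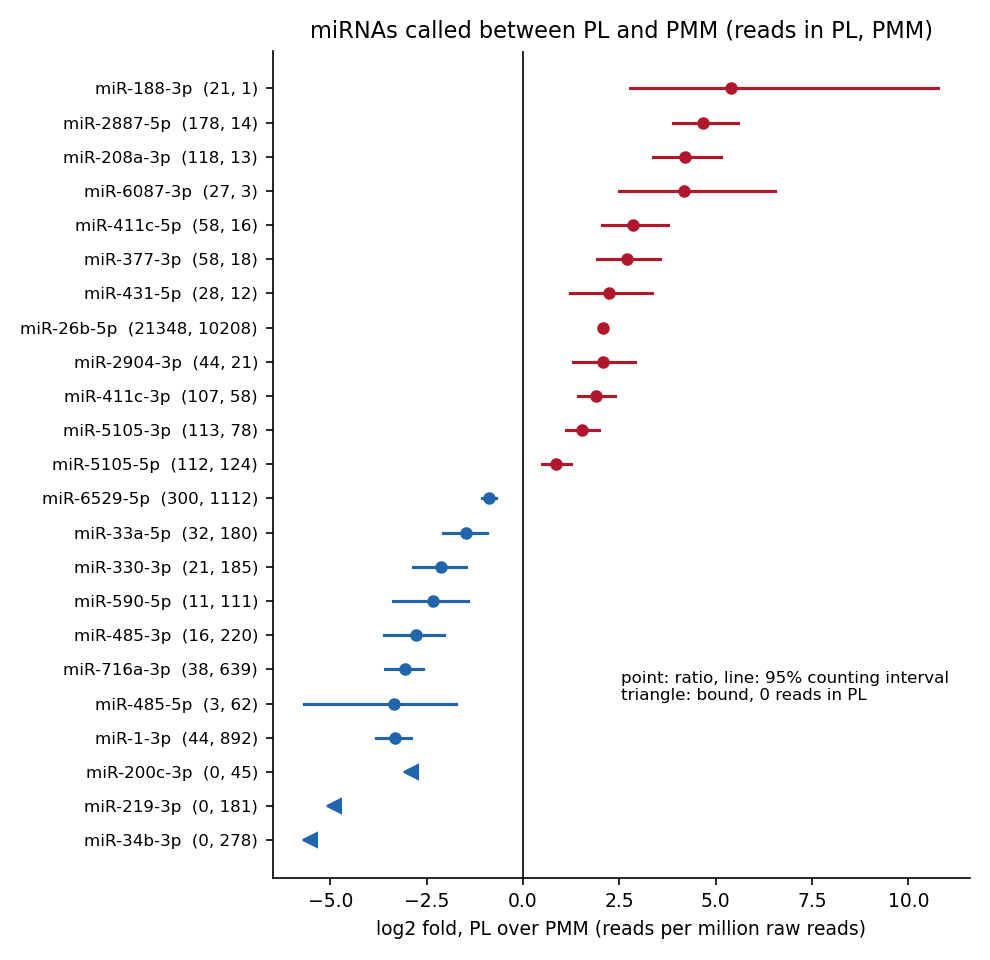
Log2 fold of PL over PMM (horizontal, raw-read totals) of the 23 called miRNAs, with reads in PL and PMM in parentheses. Points are ratios, lines 95% counting intervals, and triangles the bound for miRNAs with 0 reads in PL, computed at 3 reads. miR-188-3p has the widest interval and miR-26b-5p the narrowest.

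Of the miRNAs called lower, 3 had no read in PL. miR-34b-3p (precursor chr9:44167411-44167516, minus strand), of a family that p53 induces and that is abundant in ciliated epithelium, had 0 reads in PL and 278 reads in PMM. Against the 3 reads that a count of 0 allows in PL (0.327 RPM), it was at least 46.0-fold lower in PL (adjusted exact p = 3.46e-47). This kind of bound leaves out the counting error in PMM, and the exact 95% interval of the ratio began at 37.2-fold. Its other arm, miR-34b-5p, had 0 reads in PL and 24 reads in PMM and was not called (adjusted exact p = 0.0104). miR-449a-5p, which shares the seed of miR-34b-5p, had 2 reads in PL and 4 reads in PMM.

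miR-219-3p comes from a hairpin whose other arm is known for the maturation of oligodendrocytes. It had 0 reads in PL and 181 reads in PMM, at least 29.97-fold lower in PL by the same floor and 24.1-fold by the lower limit of the interval (adjusted exact p = 2.54e-30). It is complementary over 20 bases to miR-2964a-5p, which is listed on the opposite strand and had 1 read in PL and 6 reads in PMM. miR-200c-3p (precursor chr5:66194124-66194207, minus strand), which keeps epithelial cells from a mesenchymal state by repressing ZEB1 and ZEB2, had 0 reads in PL and 45 reads in PMM, at least 7.45-fold lower in PL by the floor and 5.81-fold by the interval (adjusted exact p = 2.21e-06). With summed conserved reads without miR-26b-5p as the total, miR-200c-3p was no longer called.

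The epithelial list held 8 tested miRNAs, of which 0 were called higher in PL and 2 lower (miR-34b-3p and miR-200c-3p), against 11.1% and 10.2% of all tested. No read in PL was listed for 5 of the 8, and 20 of the 108 tested had a read in PMM and none in PL. The list summed to 11 reads in PL and 394 reads in PMM, 1.20 RPM in PL and 21.3 RPM in PMM, of which miR-34b-3p alone gave 278 reads. miR-141-3p, of the miR-200 group, had 4 reads in PL and 18 reads in PMM, and miR-200b-3p had 5 reads in PL and 15 reads in PMM, neither called. miR-375-3p, a miRNA of endocrine cells, had 0 reads in PL and 5 reads in PMM.

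The neural list named 13 miRNAs. It held 5 tested miRNAs, of which 1, miR-219-3p, was called lower (10.2% of all tested) and none higher (11.1% of all tested). It summed to 7 reads in PL and 203 reads in PMM, 0.763 RPM in PL and 11.0 RPM in PMM. miR-138-5p had 0 reads in PL and 6 reads in PMM. miR-153-3p had 6 reads in PL and 9 reads in PMM, a PL over PMM fold of 1.34 (0.393 to 4.22). Of blood and immune miRNAs only miR-223 was tested. miR-223-3p, a marker of granulocytes, had 14 reads in PL and 41 reads in PMM, a PL over PMM fold of 0.687 (0.346 to 1.29). The endothelial, liver and fibroblast lists had no member among the tested miRNAs. Among known porcine miRNAs, not analysed here, the study reports miR-128 of the neural list, endothelial miR-126 and fibroblast miR-199a as enriched in PL. Whether other tissue in the PMM sample has a part in the lower sums of the epithelial and neural lists in PL was not tested. The same holds for miR-223-3p, whose interval included 1.

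miR-33a-5p, which lies in an intron of the sterol regulator gene SREBF2 and represses the cholesterol exporter ABCA1, was the only lipid miRNA tested. It had 32 reads in PL and 180 reads in PMM, 3.49 RPM in PL and 9.75 RPM in PMM, 2.79-fold lower in PL (1.91 to 4.21, adjusted exact p = 3.53e-07). On summed conserved reads without miR-26b-5p it was still lower, with a log2 fold of −1.03, but not called.

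miR-6529-5p, a miRNA known from cattle, was second in both libraries. It had 300 reads in PL and 1112 reads in PMM, 1.84-fold lower in PL (1.62 to 2.10, adjusted exact p = 6.22e-21), the smallest of the lower calls. Its other arm had 8 reads in PL and 58 reads in PMM, 3.60-fold lower in PL (1.71 to 8.73), and was not called (adjusted exact p = 0.013). miR-330-3p had 21 reads in PL and 185 reads in PMM, 4.38-fold lower in PL (2.78 to 7.24, adjusted exact p = 1.94e-12). miR-590-5p (precursor chr3:11024985-11025078, plus strand), which has the seed region of miR-21, had 11 reads in PL and 111 reads in PMM, 5.01-fold lower in PL (2.70 to 10.3, adjusted exact p = 5.31e-08).

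For miR-330 and miR-590 the lower level in PL was seen on 1 arm. miR-330-5p had 21 reads in PL and 11 reads in PMM, 3.84-fold higher in PL (1.77 to 8.83), and was not called (adjusted exact p = 0.0234). miR-590-3p had 105 reads in PL and 152 reads in PMM, a fold of 1.39 (1.07 to 1.80, adjusted exact p = 1) that turned to a log2 fold of −1.07 on summed conserved reads. The 5p share of a hairpin, a quantity that needs no library total, was therefore compared where both arms together had at least 10 reads in each library, by Fisher's exact test (two-sided) with Benjamini-Hochberg adjustment. It differed between PL and PMM in 11 of 21 hairpins (52.4%), with a higher 5p share in PL in 5 and a lower one in 6. Of these 11 hairpins, 4 were in the chromosome 6 stretch, where the arms overlap except in miR-716a, and this left 7 of 17 hairpins elsewhere.

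The 5p arm gave 50.0% of miR-330 reads in PL (34.2 to 65.8) and 5.61% in PMM (2.83 to 9.82; adjusted p = 4.47e-10, Fisher's exact test). Of miR-590 reads it gave 9.48% in PL (4.83 to 16.3) and 42.2% in PMM (36.2 to 48.4; adjusted p = 4.47e-10, Fisher's exact test). miR-539, a DLK1-DIO3 hairpin, had the widest gap, with 3 reads on the 5p arm and 10 on the 3p arm in PL (23.1%), and 38 and 4 reads in PMM (90.5%). In miR-188 the 5p share was 65.6% in PL and 97.0% in PMM.

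Smaller gaps were seen in the muscle hairpins: the 5p share of miR-1 was 13.7% in PL and 3.78% in PMM, and that of miR-208a was 2.48% in PL and 18.8% in PMM. In PMM the miR-208a share rested on 3 reads on the 5p arm and 13 on the 3p arm (4.05 to 45.6). Its adjusted p was close to the threshold (0.0407, Fisher's exact test). For miR-26b, the deepest hairpin, a difference of 0.15 percentage points passed the test (99.8% in PL and 99.7% in PMM). Outside the chromosome 6 stretch, the hairpins with both arms called, miR-411c and miR-485, had no called difference in 5p share. It was 35.2% in PL and 21.6% in PMM for miR-411c, and 15.8% in PL and 22.0% in PMM for miR-485. In miR-5105, the hairpin of that stretch with both arms called, it was 49.8% in PL and 61.4% in PMM. The difference in miR-5105 passed the test (adjusted p = 0.0404, Fisher's exact test).

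**Figure D4:**
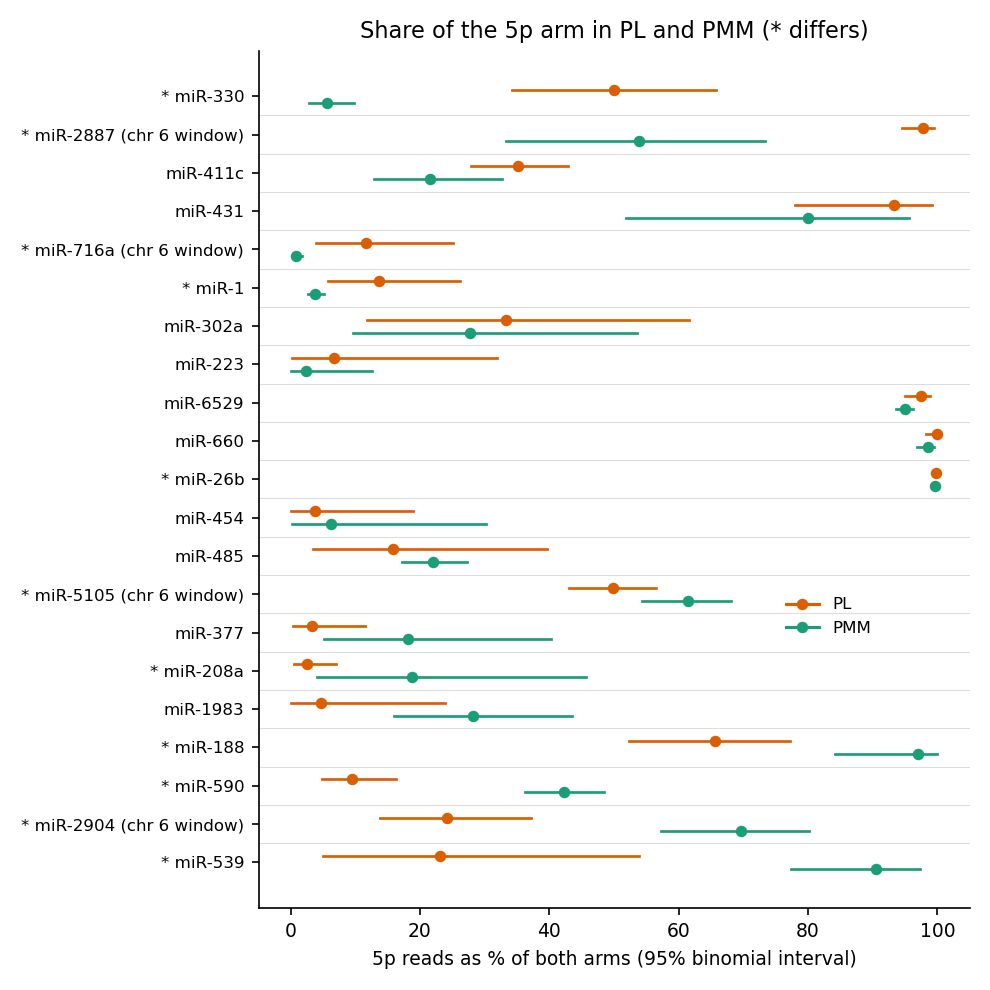
Reads on the 5p arm as a percentage of both arms (horizontal), PL above PMM for each of the 21 hairpins, with 95% Clopper-Pearson intervals. Stars mark the 11 hairpins with a Benjamini-Hochberg-adjusted p under 0.05. miR-330 at the top and miR-539 at the bottom have the widest gaps outside the chromosome 6 stretch.

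Among the tested miRNAs, 6 seeds were shared by 2 or more members, 14 miRNAs in all, of which 2 were called, against 21.3% of all tested. The seed AATACTG of miR-200b-3p and miR-200c-3p had 5 reads in PL and 60 reads in PMM. The seed TCATACA of miR-485-3p, miR-539-3p and miR-154b-3p had 27 reads in PL and 230 reads in PMM, but within it miR-539-3p had 10 reads in PL and 4 in PMM. The seed AGTGCAA joined miR-301a-3p (56 reads in PL and 54 in PMM), miR-454-3p (26 reads in PL and 15 in PMM) and miR-301b-3p (5 reads in PL and 11 in PMM). No member of that family was called, and its 2 members with more reads had folds of 2.09 (1.41 to 3.09) and 3.49 (1.78 to 7.09), higher in PL, although the log2 fold of miR-301a-3p was −0.48 on summed conserved reads. miR-302a-3p and miR-302c-3p, of pluripotent cells, shared AAGTGCT with 11 reads in PL and 15 reads in PMM. Scaled to raw reads, their PL over PMM folds were 1.55 (0.608 to 3.82) and 1.01 (0.0171 to 19.3), neither called.

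By the largest adjusted p of the 3 tests, the uncalled miRNAs closest to the threshold were miR-154b-5p and miR-454-3p. The first had 8 reads in PL and 67 reads in PMM (4.16-fold lower in PL, 1.99 to 10.0, adjusted exact p = 0.00121), and the second had an adjusted exact p of 0.00933. The called miRNAs were also compared by features of sequence. Those higher in PL had a median GC content of 60.0%, those lower 45.5%, and those not called 45.5%, but outside the chromosome 6 stretch the median of the higher group was 36.4%. A length of 21 to 23 bases was found in 6 of 12 higher, 10 of 11 lower and 69 of 85 uncalled miRNAs, and outside the chromosome 6 stretch in 6 of 7, 10 of 10 and 69 of 81. Across the 65 miRNAs with at least 10 reads over both libraries, GC content and log2 fold had a Pearson r of 0.12 and a Spearman rho of 0.037. Across the 56 of them outside the chromosome 6 stretch, r was −0.075 and rho −0.14.

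**Figure D5:**
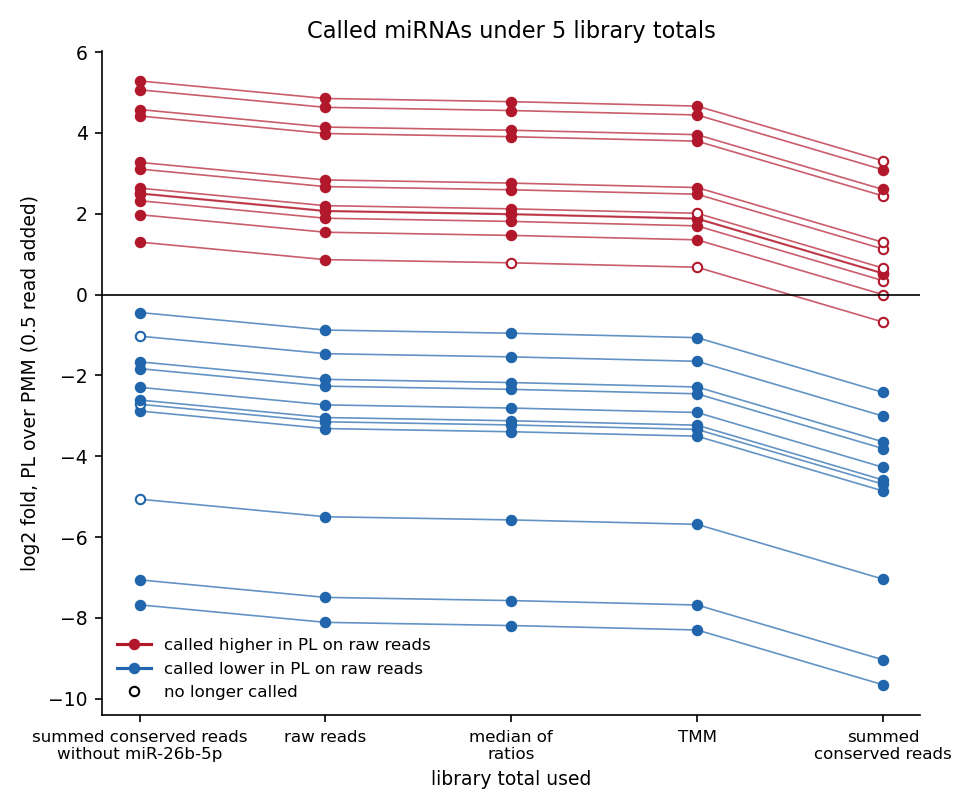
Log2 fold of PL over PMM (vertical, 0.5 read added) of the 23 called miRNAs under 5 library totals, 1 line per miRNA. Red was called higher and blue lower in PL on raw reads, and open circles were no longer called. All lines move together, and on summed conserved reads 3 of the 12 higher calls and all 11 lower calls remained.

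Under the 4 other library totals together, 3 of the 12 higher calls (miR-26b-5p, miR-208a-3p and miR-2887-5p) and 8 of the 11 lower calls (miR-1-3p, miR-34b-3p, miR-219-3p, miR-485-3p, miR-330-3p, miR-590-5p, miR-716a-3p and miR-6529-5p) held in each. Of these, miR-2887-5p and miR-716a-3p lie in the chromosome 6 stretch. No called miRNA was called in the opposite direction under any of the 4 totals.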

How the data were processed

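Small RNA was sequenced from PL and PMM, 1 library each, and PL was pooled from 3 pigs. The authors removed reads without the 3′ adapter, of fewer than 16 or more than 29 bases, or classed as junk. BLAST was then run against miRBase 19.0 hairpins (pig, and 24 mammals besides) and against the pig genome (Sscrofa 10.2). The deposited values are whole read counts, not normalized, under a heading that calls them the most abundant sequences, so they may leave out rarer length variants of a miRNA. A cell without a number (118 of 456) was read as 0. Since the table holds only part of each library, the raw reads given by the sources (9.17 M for PL, 18.46 M for PMM) served as totals. Normalization by mappable reads, which the authors used, was not repeated here.

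Folds are ratios of RPM with exact binomial 95% intervals, shares have Clopper-Pearson intervals, and lists use log2(reads + 0.5). Calls needed an adjusted p under 0.001 (Bonferroni, over 108 miRNAs) in all 3 tests. Identical sequences were merged, and a minimum of 3 reads was applied. The text names all called miRNAs, the 10 most abundant per library, list members with at least 10 reads, the other arms of called miRNAs, and the 5 uncalled with the narrowest intervals; a few further miRNAs were named after their values were seen. The comparison, the members and the lists were chosen with earlier results of these data known. Python 3.11.15, scipy 1.17.1 and pandas 2.3.3 were used.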

Additional observations from a re-analysis of the deposited data

How the results depend on the processing

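No paired analysis was possible because PL and PMM were each sequenced once, and for the same reason no library could be left out. The library total mattered most: relative to raw reads, log2 folds moved by −1.54 on summed conserved reads, 0.43 on those without miR-26b-5p, −0.19 with TMM and −0.08 with median-of-ratios factors. Against 12 called higher and 11 lower in PL on raw reads, summed conserved reads gave 3 higher and 27 lower, and the opposite sign for miR-5105-3p (−0.0022), miR-5105-5p (−0.68), miR-590-3p (−1.07) and miR-660-5p (−1.46), as well as for 12 further named miRNAs that were called under neither total. miR-26b-5p itself makes up most of that total. The other scalings gave 10 to 18 higher and 8 to 12 lower in PL. The choice of minimum, test, merging and a 1.5-fold threshold left the 23 calls as they were, a 2-fold threshold left 21, Benjamini-Hochberg adjustment gave 32 and a threshold of 0.05 gave 34. In settings chosen after seeing the data, 7 higher and 10 lower calls were left without the chromosome 6 stretch, and 10 higher and 9 lower among the miRNAs listed exactly within their precursors. With 3 reads taken as detection, 53 miRNAs were detected in both muscles and 35 in PMM alone. With PMM thinned to the depth of PL, 8 were detected in PL alone and 16 in PMM alone. Pearson's r of the levels was 0.50 at 10 or more reads over the 3 libraries and 0.57 without miR-26b-5p, and Spearman's rho at 10 or more reads was 0.40. The number of hairpins with a different 5p share stayed within 1.5 times at a minimum of 20 reads, and the share of miR-26b-5p within its interval over all entries.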

Other observations

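Some miRNAs with low counts and no call are given as values, and were chosen after their values were seen. miR-216b-5p, known from pancreas, had 4 reads in PL and 44 reads in PMM (adjusted exact p = 0.00932), and no read in LDM. miR-376d-5p had 2 reads in PL and 35 reads in PMM, whereas its 3p arm had 3 reads in PL and 12 reads in PMM. miR-551b-3p had 0 reads in PL and 14 reads in PMM. miR-96-5p, known from sensory hair cells, had 10 reads in PL and 4 reads in PMM. miR-3591-5p had 6 reads in PL and 10 reads in PMM, a PL over PMM fold of 1.21 (0.361 to 3.67). miR-3591-3p had 1 read in PL and 17 reads in PMM, a fold of 0.118 (0.00283 to 0.756). Of the 20 miRNAs with a read in PMM and none in PL, 17 had a read in LDM, and LDM was not sequenced with PL.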
